A study of Glycine max with 8 samples.

Results

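Of the 42748 soybean probes on the array, 224 were both abundant and steady from dry seed to seed imbibed for 16 h. Each probe has an accession of its own, but different accessions may belong to 1 gene, so 224 probes need not be 224 transcripts. The 224 were chosen from measured values. A member had to be well above background on all 8 arrays, to have a mean of at least 3 over the 8 arrays, and to differ by under 0.5 between its highest and its lowest array. All values are log2 of the processed signal minus the 75th percentile of the soybean probes on the same array, so a mean of 3 is 8-fold above that percentile and a range of 0.5 is 1.41-fold. The 100 probes with the highest mean in dry seed were left out by the rule. Detection held for 18483 probes, and 2126 probes met every condition but the one on the range. These 2126 are called the abundant probes. Level and steadiness on this scale are therefore a description of how the 224 were picked, and nothing is concluded from a fit on this scale.

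Whole seeds of soybean (Glycine max, cultivar Suzumaru) were measured dry (0 h) and after 8 h and 16 h of imbibition in the dark at 25 °C, with 2 arrays of dry seed and 3 of each imbibed stage, all in 1 colour. All stages are of this cultivar, with no other genotype. The labels describe a soak in 1% hypochlorous acid and a wash ahead of imbibition, and do not say whether the dry seeds measured went through it, so that this step and water uptake cannot be told apart. Per the labels, 8 h seeds were kept if they had gained over 0.06 g of water and 16 h seeds if they had germinated or gained over 0.33 g, so the length of imbibition and this selection cannot be told apart. Each stage was 1 lot of about 20 to 25 seeds split into 3 portions, so the replicates are portions of 1 lot, and p-values measure the spread among portions, which may be technical. The arrays lay on 2 slides of 4 arrays, each slide holding all 3 stages, and their number limits the precision.

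A dry seed holds messenger RNA stored from maturation, and uptake of water restarts respiration, translation and then transcription. Transcripts that keep a constant level through such a transition are of practical use as references, since the levels of other transcripts are often expressed relative to them. Steadiness depends on the yardstick. A percentile of the array states a level relative to the other transcripts of the same sample, whereas a spike-in states it relative to an RNA of outside origin that is put into the labelling reaction. The spike-ins here were the viral E1A transcripts of the array maker.

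The files pair each probe with 1 sequence accession of its own, and none of the 42748 accessions or clone names was found among the 59048 genes of the RefSeq table for Glycine max v4.0. The members are therefore named by probe and no function is assigned to them. Markers of seed coat, cotyledon and embryonic axis could not be looked up for the same reason, so the labelled tissue was not checked against markers.

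The members spanned a wide range of levels within the abundant class. Their means ran from 3.02 to 6.49, with a median of 3.86, against a median of 3.88 over all abundant probes. In rank, the lowest member on any array stood at percentile 92.5 of the soybean probes of that array. The median member stood at percentile 96.1 and 96.2 on the dry arrays, at 96.2 to 96.9 at 8 h and at 97.8 to 97.9 at 16 h. In rank the median member was thus higher on every 16 h array than on any other array. Most members lay close to the upper end of the permitted range. Ranges over the 8 arrays had a median of 0.40 and ran from 0.11 to 0.50. They were under 0.2 for 10 members, from 0.2 to 0.3 for 32, from 0.3 to 0.4 for 68 and from 0.4 to 0.5 for 114. The abundant probes that were not members had a median range of 1.38 and reached 8.98, so that the members are the lower end of a continuous distribution. Just inside the threshold lay GMFL01-06-O20-R_445 (range 0.4999), GMFL01-50-I11-R_334 (0.498), GMFL01-48-H09-F_470 (0.498) and GMFL01-05-N16-R_177 (0.497). Just outside it lay GMFL01-26-K20-R_428 (0.501), GMFL01-29-O09-R_202 (0.501), GMFL01-50-O23-F_557 (0.506) and GMFL01-48-P21-R_416 (0.506). A range of 0.45 to 0.5 was held by 59 members, and 43 abundant probes had a range of 0.5 to 0.55. At the threshold on the level, the members with the lowest means were AW348942.1_130 (3.016), GMFL01-29-J08-R_567 (3.019), GMFL01-04-A21-R_402 (3.020) and CX702922.1_807 (3.022). The steady probes nearest below it were BU547120.1_532 (2.99), GMFL01-30-F05-R_371 (2.99), AW349427.1_671 (2.99) and GMFL01-15-I16-R_323 (2.97).

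**Figure D1:**
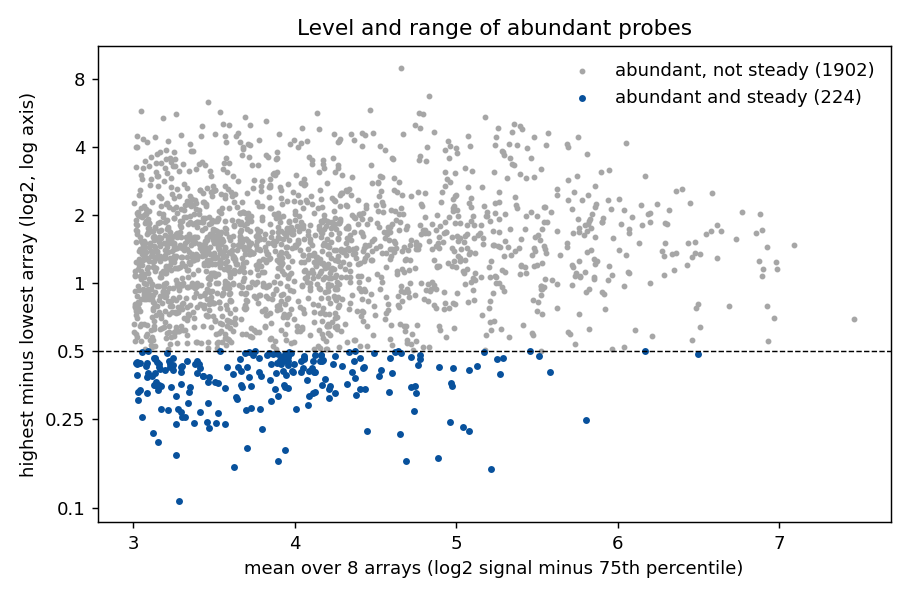
Range over the 8 arrays (vertical, log2 on a logarithmic axis) against mean level (horizontal, log2 signal minus the 75th percentile) for the 2126 abundant probes, 1 point per probe. The 224 members (blue) lie below the dashed threshold of 0.5 as the lower edge of a continuous cloud, and thin out above a level of 5.

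Steady probes became fewer toward the brightest signals on the scale of the rule. The shares by level relative to the spike-ins were not computed, so the trend is stated for the scale of the rule only. Among abundant probes the condition on the range was met by 139 of 1184 (11.7%) at a level of 3 to 4, by 70 of 613 (11.4%) at 4 to 5, by 13 of 257 (5.06%) at 5 to 6 and by 2 of 72 (2.78%) at 6 and over. None of the 100 probes brightest in dry seed would have met it. These were well above background on all 8 arrays, their ranges began at 1.18, and their median range was 2.80. Among dimmer probes detected on all 8 arrays the share was 11.9% at a level of 2 to 3, 13.8% at 1 to 2, 11.1% at 0 to 1 and 3.54% at -3 to -2. Over all 18483 detected probes it was 9.72%, or 1796 probes, and over the abundant probes it was 10.5%.

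**Figure D2:**
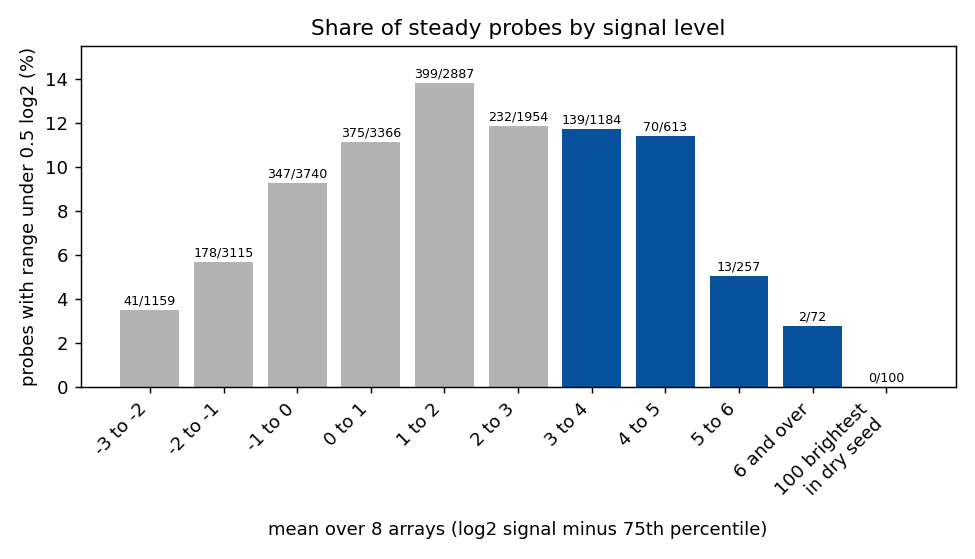
Share of probes with a range under 0.5 log2 over the 8 arrays (percent), by mean level, both on the scale of the rule. Numbers above the bars are steady probes over all probes of the class. Grey bars are probes detected on all 8 arrays below a level of 3, blue bars the abundant probes, and the last class is the 100 brightest dry probes, of which 0 were steady; the share is 13.8% at a level of 1 to 2 and 2.78% at 6 and over.

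The members differed from other abundant probes in the source of their names, which the rule did not use. Clone identifiers beginning with GMFL named 154 of the 224 members (68.8%), against 52.8% of the 1902 abundant probes that were not members and 21.9% of all soybean probes. The other 70 members carried plain sequence accessions. Of abundant probes, 13.3% with a clone identifier and 7.23% with an accession were steady. Clone identifiers were more frequent at high levels in general, and the gap was present within levels. At 3 to 4 they named 60.4% of members and 48.6% of abundant probes, at 4 to 5 81.4% and 57.7%, and at 5 to 6 84.6% and 69.6%. These shares are a description of the array content. The members were spread over the array surface, with 44, 51, 69 and 60 of them in its top left, top right, bottom left and bottom right parts, where 496, 542, 548 and 540 abundant probes lay.

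The brightest member was GMFL01-09-F10-R_655. It read 6.50 and 6.57 on the dry arrays, 6.65, 6.16 and 6.59 at 8 h, and 6.64, 6.31 and 6.53 at 16 h. The 3 stages overlapped, and its lowest array, 8 h replicate 2, stood beside 8 h replicate 1 as its highest. The next in level, GMFL01-06-O20-R_445, read 6.46 and 6.25 in dry seed, 6.03, 5.96 and 6.15 at 8 h, and 6.30, 5.97 and 6.22 at 16 h. Its dry replicate 1 was the high array, and the 8 h arrays lay below both dry arrays. GMFL01-23-K07-R_343, at a mean of 5.80, was narrower than its neighbours in level, with 5.77 and 5.88 in dry seed, 5.91, 5.72 and 5.92 at 8 h, and 5.79, 5.67 and 5.77 at 16 h. The other 5 of the 8 brightest members had means from 5.27 to 5.58 and ranges from 0.39 to 0.50. Among these, GMFL01-16-K01-R_554 read 5.66 and 5.74 in dry seed, 5.64, 5.54 and 5.49 at 8 h, and 5.27, 5.34 and 5.42 at 16 h. Its 16 h arrays were all below its other 5 arrays, so a residual order of stages was present in a probe that met the rule. GMFL01-21-D11-R_349 showed the same order at 16 h, with 5.06, 5.05 and 5.18 against 5.32 to 5.44 on the other arrays.

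The probe with the smallest range of all, AW348989.1_514, read 3.26 and 3.35 in dry seed, 3.28, 3.29 and 3.25 at 8 h, and 3.35, 3.24 and 3.25 at 16 h, a range of 0.11. AW100624.1_197 followed with a range of 0.15 at a much higher level. It read 5.16 and 5.19 in dry seed, 5.31, 5.16 and 5.20 at 8 h, and 5.17, 5.22 and 5.30 at 16 h. In both probes the stages overlapped fully. GMFL01-33-G18-R_494 (range 0.15, mean 3.62), GMFL01-14-D10-R_579 (0.16, 4.69), GMFL01-14-P21-R_601 (0.16, 3.89), GMFL01-08-P08-R_404 (0.17, 4.89), GMFL01-43-D08-R_290 (0.17, 3.26) and GMFL01-21-G24-R_413 (0.18, 3.94) completed the 8 smallest. Within an array, the 32 spots of a single E1A probe had a median SD of 0.043 to 0.058 log2. That SD leaves out differences between arrays, and it is not the same measure as a range over 8 arrays.

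**Figure D3:**
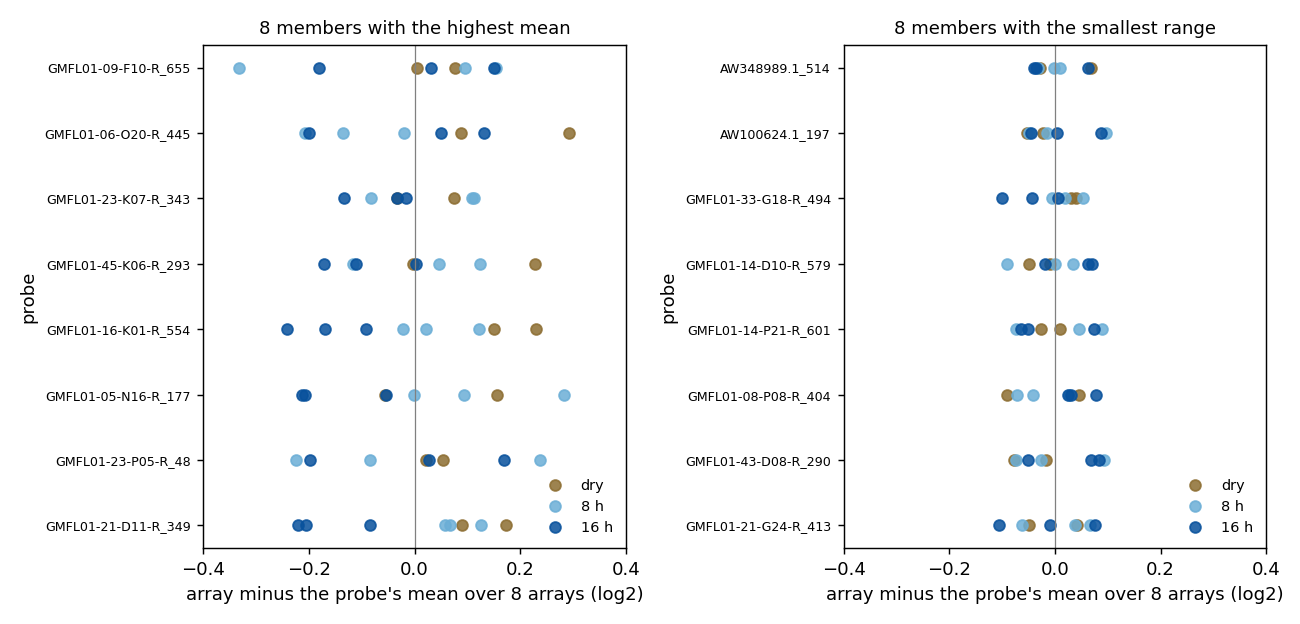
Deviation of each array from the probe's own mean over the 8 arrays (horizontal, log2) for the 8 members with the highest mean (left) and the 8 with the smallest range (right); each point is 1 array, coloured by stage. On the right all points lie within a range of 0.11 to 0.18, and on the left ranges run from 0.25 to 0.50, with the 16 h arrays of GMFL01-16-K01-R_554 and GMFL01-21-D11-R_349 below their other arrays.

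Small residual differences among the members leaned toward lower values after imbibition on this scale, as did those of all detected probes. At 16 h the mean was lower than in dry seed for 151 members and higher for 73, with a median difference of -0.086 and extremes of -0.42 and 0.37. The abundant probes as a whole had a median difference of -0.92 and were lower in 1804 of 2126 cases. At 8 h, 157 members lay lower than in dry seed and 67 higher, with a median of -0.048. Of the abundant probes, 1763 of 2126 lay lower at 8 h, with a median of -0.17. Of the 18483 probes detected on all 8 arrays, 12229 lay lower than in dry seed at 16 h and 12344 at 8 h. The lean is therefore not particular to the members. All probes of an array share 1 scaling constant, so the members are not independent of each other in these counts. Dry seed was the highest stage for 123 members, 16 h for 64 and 8 h for 37. Dry replicate 2 was the highest single array for 62 members, and 16 h replicate 2 the lowest for 61. All 3 stage means lay within 0.1 of each other for 49 members, and the 16 h and dry means lay over 0.25 apart for 45, of which 34 were lower at 16 h. Portions of 1 stage differed by a median SD of 0.069 in dry seed (n = 2), 0.11 at 8 h (n = 3) and 0.087 at 16 h (n = 3) over the members. Over the abundant probes that were not members the SDs were 0.077, 0.23 and 0.16. The limit on the range over these same arrays bounds the members' SDs, so this contrast follows from the rule.

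The rule bounded every difference between stages on its own scale, so the counts of a fit there are printed beside the background only and nothing is read from them. On that scale limma called 7 of the 224 members for 16 h against dry seed, 1 higher and 6 lower (Benjamini-Hochberg adjusted p under 0.05 over 28792 tested probes). Over all tested probes 30.8% were called higher and 33.8% lower. For 16 h against 8 h it called 3 members, 1 higher and 2 lower, against 29.2% and 31% of tested probes. For 8 h against dry seed it called 0, against 0.74% of tested probes in either direction. None of the 224 passed an unadjusted limma p under 0.05 for 8 h against dry seed either. The share of all tested probes at that unadjusted threshold was not computed. The member with the largest difference upward, GMFL01-47-J09-R_306, read 3.85 and 3.90 in dry seed, 3.99, 4.06 and 3.89 at 8 h, and 4.27, 4.27 and 4.19 at 16 h. The member with the largest difference downward, GMFL01-29-P23-R_452, read 4.24 and 4.25 in dry seed, 4.12, 4.11 and 4.11 at 8 h, and 3.80, 3.86 and 3.82 at 16 h. In both, the 16 h arrays did not overlap the others.

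The members were not steady in brightness itself, a result that their choice fixed. Before any scaling their median intensity was 3020 and 3152 units on the dry arrays, 3052, 4298 and 3170 units at 8 h, and 8972, 10459 and 6472 units at 16 h. Every 16 h array was brighter than every dry and 8 h array. AW348989.1_514, the member with the smallest range, gave 1997 and 2168 units in dry seed, 2061, 3031 and 2117 units at 8 h, and 6639, 7100 and 4378 units at 16 h. GMFL01-09-F10-R_655 gave 18908 and 20169 units in dry seed, 21239, 22135 and 21399 at 8 h, and 65220, 59517 and 42433 at 16 h. The 75th percentile itself stood at 7.72 ± 0.015 log2 intensity in dry seed (SD, n = 2), 7.93 ± 0.30 at 8 h (n = 3) and 9.25 ± 0.36 at 16 h (n = 3). It was 8.85 or more on each 16 h array and 8.27 or less on each dry and 8 h array. These values lie farther apart than the 0.5 that the rule allowed a member. The order in brightness was therefore set by the choice of members, which are level relative to the percentile by the rule.

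The E1A spike-ins did not share this difference between stages. The mean of the 7 E1A probes with signal above background and short of saturation on every array was 13.24 ± 0.028 log2 intensity in dry seed (SD, n = 2), 13.42 ± 0.050 at 8 h (n = 3) and 13.32 ± 0.18 at 16 h (n = 3). Over the 8 arrays it spanned 0.36 log2. Each of the 7 kept within 0.072 to 0.17 log2 of range around that mean, although they cover signals from 8.01 to 18.12 log2 on the array of dry replicate 1. The 2 spike-in probes nearest to the typical brightness of the members, a22 and a97, read 11.07 and 13.23 on that array and 11.25 and 13.29 on 16 h replicate 2. The amount of spike-in added per sample is not given in the sources used here. The labelling reaction took 200 ng of total RNA, so levels relative to the spike-ins are per amount of RNA if equal spike-in was added. Levels relative to the percentile are relative to the other probes of the array. Neither scale is per seed.

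Relative to the spike-ins every member was higher after 16 h than in dry seed, a direction that the choice of members fixed. Relative to the spike-ins the 75th percentile stood higher on every 16 h array than on any dry array by at least 1.21 log2 and than on any 8 h array by at least 0.87, while a member could move by under 0.5 against the percentile. What follows therefore gives the size and spread of the difference, and its direction is not a finding about the members. The members' median stood at -1.66 and -1.63 log2 from the spike-in mean on the dry arrays, at -1.79, -1.37 and -1.84 at 8 h, and at -0.37, 0.047 and -0.49 at 16 h. All 16 h arrays lay above all others, and the 8 h arrays lay on both sides of the dry arrays. The means were -1.64 ± 0.015 in dry seed (SD, n = 2), -1.67 ± 0.26 at 8 h (n = 3) and -0.27 ± 0.28 at 16 h (n = 3). The 16 h level was 1.37 log2, or 2.59-fold, above dry seed (two-sided exact permutation p = 0.2) and 1.40 log2, or 2.63-fold, above 8 h (exact p = 0.1), the smallest p-values these numbers of arrays allow. The full separation of the 16 h arrays behind these p-values follows from the choice of members as well. After Benjamini-Hochberg adjustment over the 3 comparisons both exact p-values were 0.3. The 8 h level differed from dry seed by -0.021 log2 (exact p = 1), less than the spread among the 8 h portions. The rule bounded this difference too, since the percentile itself moved by 0.025 log2 against the spike-ins between these stages. Within slide 1 the 16 h arrays lay 1.49 log2 above the dry array, and within slide 2 the 16 h array lay 1.15 above it. Without 16 h replicate 2, the brightest array, the difference from dry seed was 1.22.

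**Figure D4:**
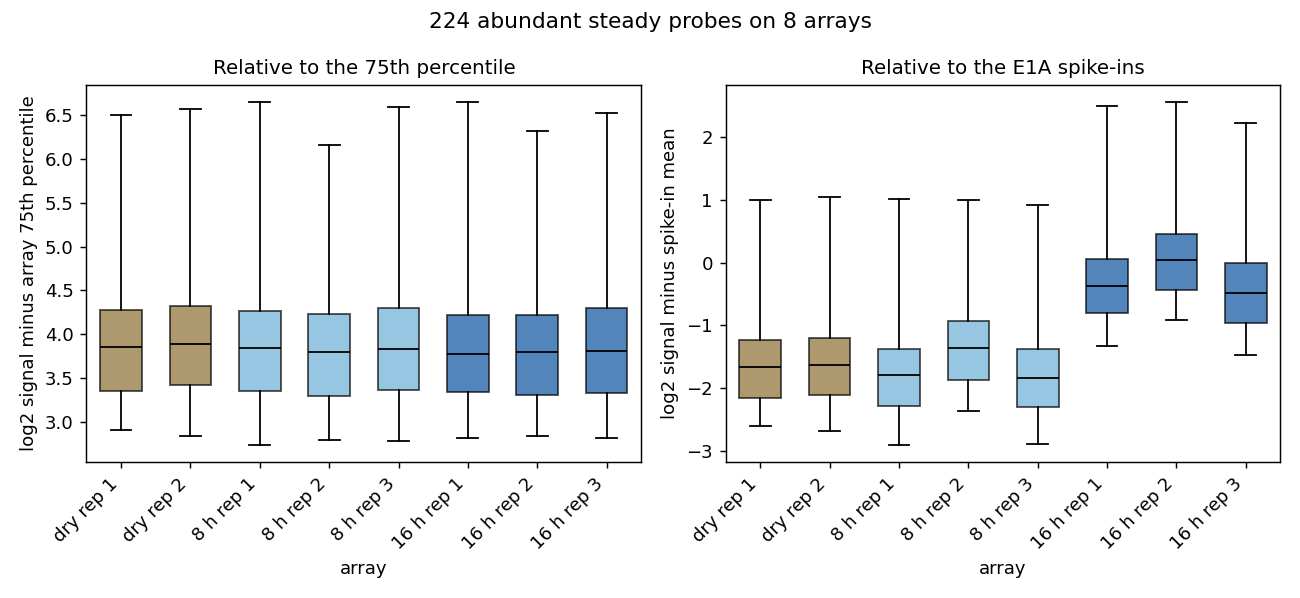
Levels of the 224 members on each of the 8 arrays, relative to the array's 75th percentile (left, log2) and to the mean of the E1A spike-ins (right, log2). Boxes give the quartiles and median over members and whiskers the lowest and highest member; brown is dry seed, light blue 8 h and dark blue 16 h. On the left the medians stay between 3.78 and 3.89, and on the right they stand at -1.84 to -1.37 in dry and 8 h seed and at -0.49 to 0.047 at 16 h.

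Probe by probe, the changes on the spike-in scale ran from 1.03 to 1.81 log2 between dry seed and 16 h. A limma fit over all 28792 tested probes on this scale called all 224 members higher, with adjusted p between 0.000262 and 0.00907, where 69.3% of tested probes were called higher. For 16 h against 8 h it also called all 224 higher, where 76.9% were. For 8 h against dry seed it called 0 members at an adjusted p under 0.05 and 0 at an unadjusted p under 0.05. Over all tested probes 0.455% were called at the adjusted threshold. The choice of members limited this count as well. The rule held each member under 0.5 against the percentile, which moved by 0.025 log2 against the spike-ins from dry seed to 8 h. The absence of calls at 8 h is therefore not a finding about the members. As these are whole seeds, a change in the mix of cell types and a change in a transcript's level per amount of RNA within cells cannot be told apart. Of the 2126 abundant probes, 901 were called higher and 202 lower for 16 h against dry seed. The direction of the members' calls with 16 h was fixed as above, so the counts are not read against these shares. A probe held level against the 75th percentile moves with that percentile, which itself stood 1.45 log2 higher relative to the spike-ins at 16 h than in dry seed. Both comparisons with 16 h share the 16 h arrays. Within a slide each comparison has an arm of 1 array, assumed to vary like the 1 stage with 2 arrays there, so such a fit is a weak check. Within slide 1 limma called all 224 members higher for 16 h against dry seed and against 8 h, where 65.7% and 73.2% of tested probes were called higher. Within slide 2 it called 0 in both, with 1 and 5 members at an unadjusted p under 0.05, where 23.1% and 21.6% of tested probes were called higher.

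Both scales differ by 1 constant per array, so the members had the same order of change on both, which is the order of the values the rule used. No p-value is given for single members, since the rule fixed the direction of each change. GMFL01-47-J09-R_306 had the largest change, 1.81 ± 0.30 log2 (SE) or 3.51-fold. Its dry level was -1.64 ± 0.023 log2 (SD, n = 2) and its 16 h level 0.17 ± 0.32 (n = 3). GMFL01-48-G04-R_428 and AW350203.1_493 followed, the latter with 3.45-fold. GMFL01-29-P23-R_452 had the smallest change, 1.03 ± 0.28 (SE) or 2.04-fold, with a dry level of -1.28 ± 0.0050 and a 16 h level of -0.25 ± 0.31. BU926085.1_501 and CX705081.1_585 were next, both at 2.07-fold. AW348989.1_514 changed by 1.42 ± 0.28 (SE), or 2.68-fold. Its 8 arrays read -2.25 and -2.17 in dry seed, -2.36, -1.87 and -2.42 at 8 h, and -0.81, -0.51 and -1.05 at 16 h.

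A separate set of abundant probes was steady against the spike-ins. Among the 2126 abundant probes, 65 kept a range under 0.5 relative to the spike-in mean, and none of the 65 was among the 224. This is a matter of arithmetic, since the gap between percentile and spike-ins varied by 1.91 log2 over the 8 arrays, more than both ranges of 0.5 together. By the same arithmetic all 65 were lower at 16 h on the percentile scale, 2.83-fold in the median. BM523214.1_423, which had the smallest range of these on the spike-in scale and was chosen after its values were seen, read -0.80 and -0.86 in dry seed, -0.90, -0.66 and -0.91 at 8 h, and -0.81, -0.65 and -0.76 at 16 h. Relative to the 75th percentile the same probe read 4.71 and 4.67 in dry seed, 4.74, 4.50 and 4.77 at 8 h, and no more than 3.54 at 16 h.

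Other ways of scaling the arrays gave the 224 members other directions and sizes of difference. With each array centred on its median, the members' median difference between 16 h and dry seed was -0.52 log2 and all 224 lay lower. When the percentile was computed from the always-detected probes it was 0.37, and with quantile normalization 0.74, and all 224 lay higher in both. With normexp background correction and the 75th percentile it was 0.22, with 200 higher and 24 lower. The median of all tested probes moved by -0.48, 0.42, 0.0034 and -0.44 log2 under these 4 scalings and by 1.41 relative to the spike-ins. The members' median lay farthest from it under quantile normalization (0.74 against 0.0034) and normexp (0.22 against -0.44). Limma called 93 members (41.5%) lower with median centring, where 44.1% of tested probes were called lower, and 95 (42.4%) higher with the percentile over detected probes, where 42.6% were called higher. Both shares are near those of all tested probes. With quantile normalization it called 222 (99.1%) higher, where 30.6% of tested probes were called higher. These fits use the arrays the members were chosen on, and nothing particular to the members is read from them. The direction of the members between dry seed and 16 h thus turned with the scaling.

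**Figure D5:**
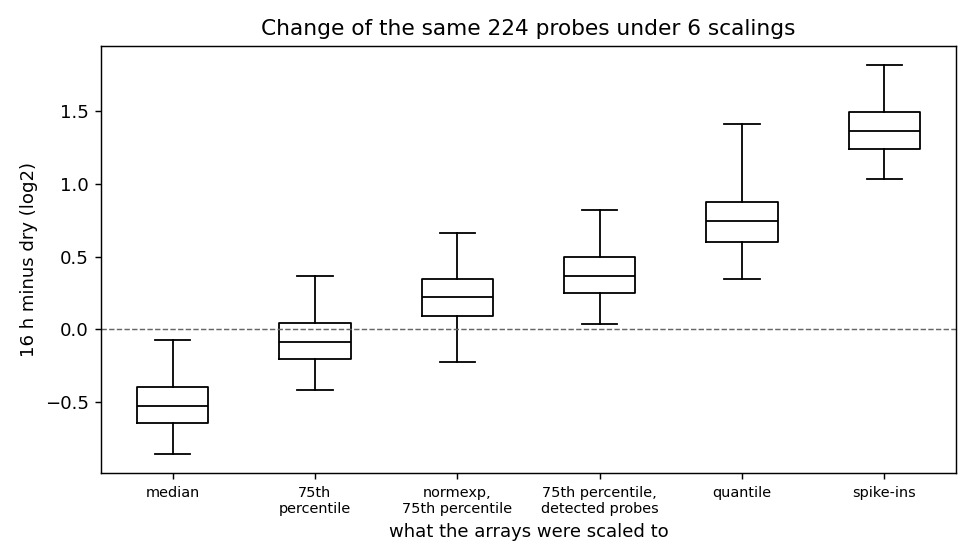
Difference between the 16 h and dry means (vertical, log2) of the same 224 probes under 6 ways of scaling the arrays; boxes give quartiles and median, whiskers the lowest and highest probe, and the dashed line marks 0. The medians run from -0.52 with median centring through -0.086 with the 75th percentile to 0.74 with quantile normalization and 1.36 relative to the spike-ins.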

How the data were processed

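The deposited scanner files hold linear intensity values for every spot. According to the headers of these deposited files, Agilent Feature Extraction 10.7.3.1 was used by the authors; its processed intensity has background removed and is detrended within each array, and arrays were not normalized to each other. For the normexp alternative (offset 50), deposited median spot and background intensity were taken, since a mean signal is not among the columns used here. The deposited log2 value table equals log2 processed signal minus the 75th percentile up to a constant of -0.0027 to -0.00084 per array, which settles its scale, centring and direction. Its column medians were -3.10 to -2.52, and 42748 of its 42808 entries match soybean probes.

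Control spots (1417) and 0 to 4 outlier spots per array were dropped; no member was flagged and no soybean probe was saturated. The fits used 28792 probes that exceeded background on all arrays of 1 or more stages. With limma 3.58.1 (R 4.3.3) 1 mean per stage was fitted to the 8 arrays (lmFit, contrasts.fit, eBayes), once on values relative to the 75th percentile and once relative to the mean of 7 E1A probes (32 spots each), and probes with a Benjamini-Hochberg adjusted p under 0.05 were called. The fitting code was checked on simulated arrays. Array medians were compared by exact permutation (Python 3.11.15, scipy 1.17.1). Groups and replicate numbers came from sample titles, slides from header barcodes. Another replicate of dry seed was not used here.

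Members and lists were chosen with earlier results of these data known. Probes are named by rule as the 8 highest in mean, the 8 smallest in range, 4 on either side of each threshold, and the 3 with the largest and the 3 with the smallest change relative to the spike-ins. Planned lists by product name, cell type markers and several probes per transcript were not run, because no probe is paired with a gene and each has its own accession. Probe sequences were not used here. Alternatives covered background, scaling, thresholds, filters, slide, replicate number and each array left out.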

Additional observations from a re-analysis of the deposited data

How the results depend on the processing

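The 224 members were unchanged in number with the deposited value table and with none of the brightest probes left out, and 223 of 224 were shared with the former. Their number was 110 with a range under 0.4 and 318 with one under 0.6, 311 with a mean of at least 2.5 and 149 with one of at least 3.5, 350 and 428 from the arrays of slide 1 or slide 2 alone, and 232 to 283 with 1 array left out. With the abundant probes held fixed and the range taken on other scales, 53 probes were steady with median centring (20 shared with the 224), 339 with the percentile over detected probes (76 shared), 377 with quantile normalization (5 shared), 65 with spike-in centring (0 shared) and 0 with normexp background. Under normexp the members' median was 1.98 on 8 h replicate 3 and 3.33 to 3.66 on the other arrays, and the cause was not tested.

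Relative to the spike-ins, the difference of 16 h from dry seed was 1.15 to 1.49 log2 over the alternatives run, and 1.22 to 1.48 with 1 array left out. That from 8 h was 1.11 to 1.63, and 1.24 to 1.54 with 1 array left out. The 8 h difference from dry seed turned to 0.034 with all 10 E1A probes and 0.032 within slide 2, and ran from -0.17 to 0.064 with 1 array left out (0.043 without 8 h replicate 1, 0.064 without replicate 3). Members called on that scale numbered 213 to 224 with 1 array left out and 173 with normexp for 16 h against dry seed, and 211 with normexp for 16 h against 8 h. Calls within a slide differed between the slides and are not counted, since each comparison there has an arm of 1 array.

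On the scale of the rule, where nothing is read from the counts, the 7 members called for 16 h against dry seed became 0 with no filter, 14 over probes detected on all arrays, 2 with slide as a block, 0 with the replicate block, 93 lower with median centring (44.1% of tested probes), 95 higher with the percentile over detected probes (42.6%), 222 higher with quantile normalization (30.6%), 0 with normexp (7.35% higher and 13.9% lower), and 0 to 8 with 1 array left out (0 without either dry replicate or 16 h replicate 1 or 3, 2 without 16 h replicate 2, 4 without 8 h replicate 1). The 3 called for 16 h against 8 h became 0, 10, 0, 0, 36, 82, 210 and 0 in the same order (39.4% lower, 40.4% higher, 29% higher, and 6.29% higher with 18.4% lower, of tested probes under the last 4), 0 with only these 2 groups in the fit, and 0 to 2 with 1 array left out (0 without any 1 dry or 16 h replicate, 1 without 8 h replicate 1 or 3). Replicate numbers share no stated origin, and deviations of same-numbered arrays correlated at -0.049 to 0.10, so they were not taken as pairs. The replicate block changed no count of members called relative to the spike-ins. With no filter, 19.1% of tested probes were called higher and 36.2% lower for 16 h against dry seed on the scale of the rule. Where a count in this section stands without the share over all tested probes, it is not read against a background.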
